A study of Mus musculus with 18 samples.

Results

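The comparison described here is the interaction of atrium and genotype in mice: the difference between right atrium (RA) and left atrium (LA) in animals labelled Het or KO for Zfhx3, minus the same difference in animals labelled WT. It rests on 17 of the 18 libraries of messenger RNA, 5 from WT and 12 from Het and KO animals, which are called mutants below. The 2 columns labelled as the RA of WT animals 1 and 2 held identical counts for every gene and were counted as 1 library, so WT has 3 LA and 2 RA libraries, and each of Het and KO has 3 and 3. By the IDs in the sample titles the libraries come from 9 animals, 3 per genotype, and the treatment field of the labels holds NA. Strain, age and sex of the animals, the part of Zfhx3 that was altered and the cells in which it was altered are not stated by the labels, and the tissue is whole atrium. The working name of this comparison was a loss of the right-left contrast in mutants. Most genes that differed between the WT atria kept their direction in mutants. Whether the contrast was smaller over the genes as a whole was neither established nor excluded, with 2 WT RA libraries. The comparison is therefore called the interaction below.

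The left and right atrium arise from different sides of the embryo. The sinus node, the pacemaker of the heart, lies in the right atrium, and the ligand Bmp10 is made by right atrial myocytes. Bone morphogenetic proteins (BMPs) and the transforming growth factor beta (TGF-beta) family act through receptor kinases and SMAD proteins, which switch on Id genes and the inhibitory SMADs that damp the pathway. Zfhx3 is a large DNA-binding protein with zinc fingers and homeodomains, and variants near the human gene are linked to atrial fibrillation.

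Total counts per library ran from 18000583 to 33483085. Atrial myocyte genes were abundant in every library, with a summed level of 9330 to 15600 CPM (counts scaled to library size) for 6 defining markers, and the ventricular marker Irx4 had no count in any. The WT LA libraries stood apart in their mitochondrial share, 24.1 to 26.7% of counts against 18 to 22.3% in the other 14 libraries. WT LA replicate 3 was also low in macrophage markers (mean log2 CPM 1.95, against 3.8 to 4.91 in the other libraries) and in fibroblast markers (5.28, against 6.09 to 6.93). Xist was at 576 to 706 CPM in all 6 Het libraries and at 0.812 to 1.1 CPM in the 5 WT libraries, with KO on both sides, so genotype and sex cannot be told apart between WT and Het.

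Zfhx3 itself (GRCm38 chr8:107942644-108961630, plus strand) was measured at 18, 17.4 and 13.9 CPM in WT LA and at 20.4 and 17.8 CPM in WT RA. The Het libraries gave 19.5, 16.4 and 17.8 CPM in LA and 18.9, 19.9 and 17.6 CPM in RA. The KO libraries gave 17.3, 17.4 and 15.3 CPM in LA and 18, 14.9 and 17.7 CPM in RA. The ranges of all groups overlapped. A count over the whole gene does not show a small deletion or a change of sequence, and the labels do not name the altered part, so this level does not check the genotype labels. The RA minus LA difference was 0.21 on the log2 scale in WT and 0.04 in mutants, and the interaction was -0.16 (SE 0.15, edgeR adjusted p = 0.942).

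In WT, 2137 of 18018 genes tested (11.9%) differed between the atria at an edgeR adjusted p under 0.05, which is what "called" means below. Of these, 978 were higher in RA and 1159 higher in LA. With library totals in place of TMM scaling the split was 2772 to 543. In mutants 3283 genes (18.2%) were called, 1507 higher in RA and 1776 higher in LA, with 12 libraries behind the contrast against 5 (1877 and 1400 with library totals). The WT count came to 610 without WT RA replicate 1 and to 968 without WT RA replicate 3, so that a count of calls does not measure the size of the contrast. Among the 2137 genes of WT, 2121 kept their sign in mutants, 1560 (73%) were called in the same direction and 0 were called in the opposite one. The plot of mutant against WT contrasts shows both atrial programmes present in the mutants.

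**Figure D1:**
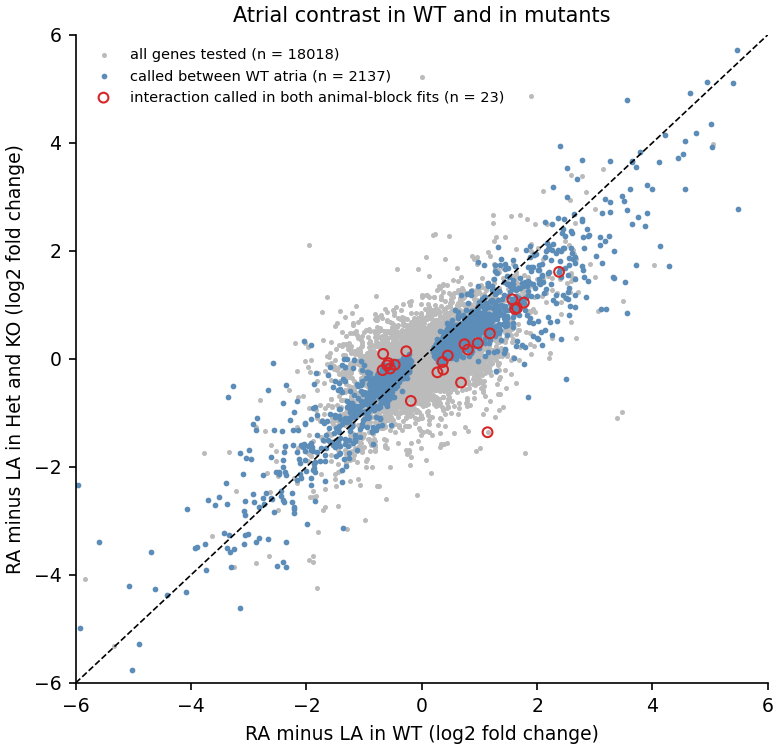
RA minus LA difference of each gene (log2 fold change) in WT on the x axis and in Het and KO pooled on the y axis, with the line of equal values dashed. Of the 18018 genes, 22 lie outside the axes, which end at 6. Blue points are the 2137 genes called between WT atria, and red circles the 23 genes whose interaction was called in both fits with the animal as block, which lie between the line of equality and the x axis in most cases.

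The interaction itself was called for 0 of 18018 genes (0%). The lowest adjusted p was 0.271, and 950 genes (5.27%) had an unadjusted p under 0.05, with a lower RA minus LA difference in mutants for 511 and a higher one for 439. DESeq2 called 5 genes on the same libraries, Slit2 with a higher and Cnr1, Unc5b, Mal2 and Smad7 with a lower interaction, and limma-voom called 0. The 95% interval of a gene's interaction had a median half-width of 0.43 on the log2 scale, and of 0.27 for the 10754 genes that averaged 5 CPM or more.

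Taking the animal as a block compares the atria within each animal. The identical WT RA library can belong to WT animal 1 or 2, and the block was fitted both ways. With the library as animal 1, 33 genes (0.183%) were called for the interaction, 7 higher and 26 lower in mutants. Placed as animal 2, 352 genes (1.95%) were called, 122 higher and 230 lower. The WT side then rests on 2 pairs of libraries, and WT animal 3 is 1 of them in either fit. Without WT animal 3 the counts were 2 and 178, and without the other WT pair they were 675 and 672. A block taken as random in limma-voom called 0 genes.

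**Figure D2:**
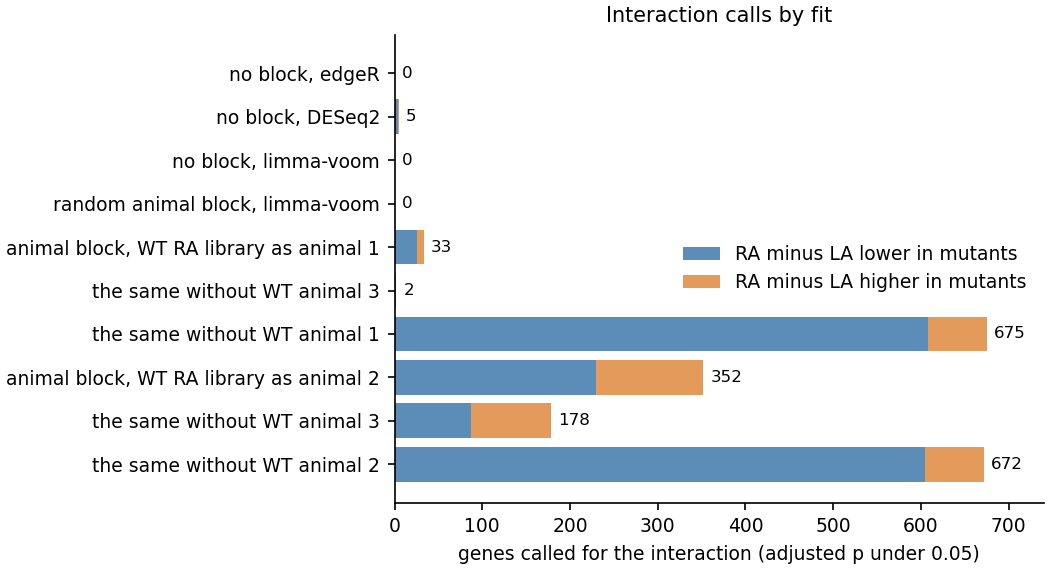
Number of genes called for the interaction (x axis, adjusted p under 0.05 in the named fit) under each fit, with genes whose RA minus LA difference was lower in mutants in blue and higher in orange. The count runs from 0 without a block to 675 with the block and without WT animal 1.

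Both placements called 23 genes (0.128%), 7 with a higher (0.0389%) and 16 with a lower (0.0888%) RA minus LA difference in mutants. In all 23 the WT differences, 2 of which share the identical RA library, lay outside the range of the 6 mutant animals, as in 8.81% of all genes tested. The choice of these genes by the same differences favours this, and nothing is read from it. Without WT animal 3 all 23 kept their sign in both placements, and 2 and 14 of them were called. The 16 lower genes included Skil, Cnr1, Cap1, Heyl, Id3, Actb, Smad6, Tcf21, Unc5b, Zfp365, Pkd1, Tmem204, Smad7, Elf4 and 1 gene without a symbol in the annotation used here (ENSMUSG00000118667). The 7 higher genes were Aldh1l2, Usp9x, mt-Co1, mt-Nd4, mt-Cytb, Zfp970 and Gm14325. Zfp970 and Gm14325 belong to a cluster of similar zinc finger genes on chromosome 2, and some mitochondrial genes have nuclear copies, so reads of these could be split between copies. These 23 genes were listed after their values were seen.

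Among the 16 lower genes the LA level was higher in mutants than in WT for all 16, with a median difference of 0.69 on the log2 scale, while the RA level differed by a median of 0.11. In 15 of the 16 the LA difference was larger than the RA difference. Among the 7 higher genes the medians were -0.56 in LA and -0.12 in RA. Over all genes tested they were 0.01 and 0.00. These values describe genes chosen by the interaction and carry no test of their own.

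To compare the size of the contrast without choosing genes in the libraries compared, genes were called between the atria of 1 genotype alone and read in the other 2. A choice in Het or KO favours genes that kept a contrast in mutants. Genes that lost it in both mutant genotypes are mostly left out, so the medians below do not test for such a loss. On the 1178 genes called in Het alone, the median RA minus LA difference, signed by the direction in Het, was 0.75 in WT and 0.77 in KO. The difference had the sign of Het in 1154 genes in WT and in 1177 in KO, and was larger in WT than in KO for 640 of the 1178. On the 1626 genes called in KO alone the median was 0.66 in WT and 0.62 in Het, larger in WT for 957. Split by direction, the 741 genes higher in RA of KO had medians of 0.78 in WT and 0.62 in Het, and the 885 higher in LA had 0.59 in WT and 0.62 in Het. The 504 genes higher in RA of Het had 0.94 in WT and 0.78 in KO, and the 674 higher in LA had 0.61 in WT and 0.75 in KO. WT was thus the higher of the pair for genes of the RA and the lower for genes of the LA in both choices, and WT animal 3 had the highest WT median for the RA genes in both (1.14 and 0.94, against 0.72 to 0.86 for the other WT pairs).

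**Figure D3:**
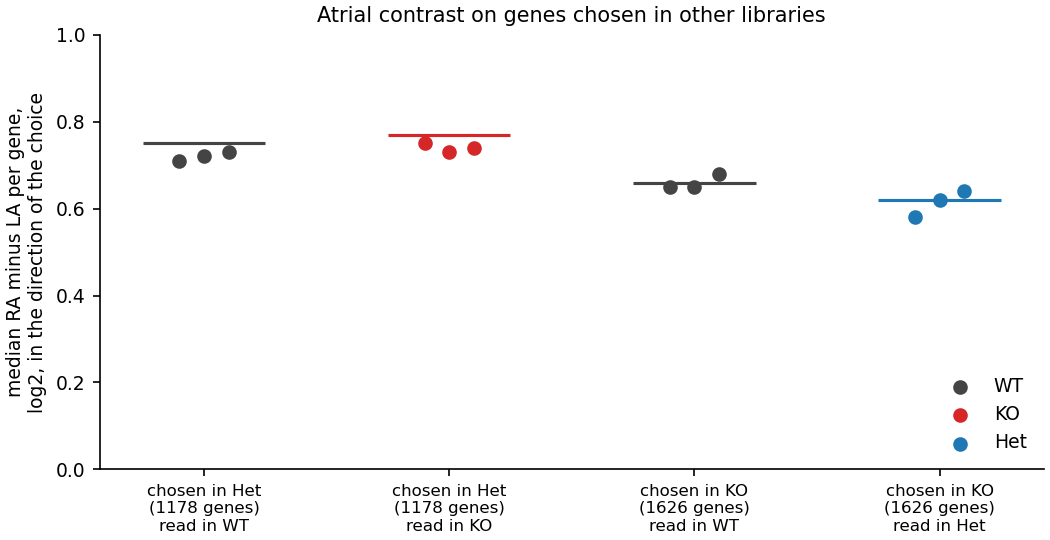
Median RA minus LA difference (y axis, log2, signed by the direction in the genotype that chose the genes) over genes called in Het alone or in KO alone. Points are single animals on log2 CPM (for WT, animal 3 and the identical RA library minus the LA of animals 1 and 2), lines the median of the fitted differences. WT points lie between 0.65 and 0.73 and those of mutant animals between 0.58 and 0.75.

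Choosing the genes in WT gave another picture, and a choice in 1 genotype favours high values in that genotype. The 1193 genes called in WT alone had a median of 0.71 in WT, 0.50 in Het and 0.53 in KO. The difference was larger in WT than in Het for 991 of them, and larger in WT than in KO for 979. In their own genotype, the genes chosen in Het had a median of 0.83 and those chosen in KO 0.73. How much of the WT excess comes from the choice was not tested. No gene was called for a different contrast in KO and Het: edgeR called 0 of 18018 genes (0%) for KO minus Het, with 244 genes (1.35%) at an unadjusted p under 0.05. DESeq2 and limma-voom also called 0, and the animal block called 0 with 552 genes (3.06%) at an unadjusted p under 0.05.

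Bmp10 was nearly confined to RA in WT and in mutants. Bmp10 (chr6:87428994-87437677, plus) was at 3.24, 3.87 and 0.972 CPM in WT LA and 7680 and 8830 CPM in WT RA, and at 1.19 to 4.88 CPM in LA and 7220 to 9290 CPM in RA of mutants. Its interaction was 0.10 (SE 0.46, 95% interval -0.88 to 1.08).

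Other genes with large contrasts in WT also kept them. Hamp, which encodes the iron hormone hepcidin, was at 66.6 and 90.4 CPM in WT RA and 18.4 to 62.9 CPM in mutant RA, so the RA ranges did not overlap, with LA below 1 CPM throughout. Its interaction of -1.13 (SE 0.82) was not called. A2m, Cd207 and Cxcl13, the other genes with the largest RA excess in WT, had RA minus LA differences of 7.48, 7.44 and 5.01 in WT and 7.59, 5.91 and 4.35 in mutants. On the LA side Hmcn2, Timp4 and Scara5 differed by -6.75, -4.42 and -4.09 in WT and by -6.96, -4.38 and -4.31 in mutants. Scn4b, a sodium channel subunit, was at 53.1 ± 12.7 CPM (SD, n = 3) in LA and 5.16 ± 0.513 CPM (n = 2) in RA of WT. Mutant LA gave 12.0 ± 4.18 CPM and mutant RA 1.86 ± 0.682 CPM (n = 6 each), with no overlap in either atrium, while its RA minus LA difference was -3.37 in WT and -2.68 in mutants (interaction 0.69, SE 0.46, adjusted p = 0.922). All of these contrasts were called in WT and in mutants.

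The list of left-right and sinus node genes had 15 of 16 members tested, 8 called higher in RA of WT (5.43% of all genes tested) and 6 in mutants (1507 of 18018 genes). No member was called for the interaction with or without the block. The median RA minus LA difference of the list was 1.08 in WT and 0.32 in mutants. Its median interaction was -0.2, and 0.06 without WT LA replicate 3. The interaction was negative for 9 of the 15 members, against 9327 of 18018 genes. Shox2, a regulator of sinus node development, was at 0.516, 0.590 and 0.648 CPM in WT LA and 4.71 and 1.87 CPM in WT RA. In mutants it ran from 1.06 to 1.77 CPM in LA and from 1.42 to 6.45 CPM in RA, so LA levels did not overlap with WT and RA levels did. The interaction of -1.38 (SE 0.65, 95% interval -2.76 to 0.01, adjusted p = 0.914) was not called, and without WT RA replicate 1 it came to -0.56. Hcn4, the main pacemaker channel, differed by 1.15 in WT and 1.41 in mutants, and Rgs6, a brake on muscarinic signalling, by 1.21 and 1.34. Tbx5, an atrial septation factor, differed by 0.34 and 0.23, and Nppa, the atrial natriuretic peptide, by 0.14 and -0.17, with neither atrial difference of Nppa called.

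With the animal as block, Smad7, Smad6 and Id3 were the members of the TGF-beta and BMP list called for the interaction in both placements, all lower in mutants. Smad7, which blocks the receptors of both branches, was at 15.1, 17.7 and 17.2 CPM in WT LA and 56.3 and 57.7 CPM in WT RA. In Het it was at 34.7, 28.2 and 28.0 CPM in LA and 65.7, 61.2 and 53.2 in RA. In KO it was at 30.3, 36.1 and 29.0 CPM in LA and 62.5, 71.4 and 69.5 in RA. Every mutant LA library was above every WT LA library, while the RA ranges overlapped. The RA minus LA difference was 1.77 in WT and 1.04 in mutants, and the interaction was -0.73 (SE 0.14, 95% interval -1.03 to -0.43, edgeR adjusted p = 0.271). With the block it was -0.78 (SE 0.10, adjusted p = 0.00237) and -0.66 (SE 0.10, adjusted p = 0.00217) in the 2 placements, and without WT animal 3 it was -0.84 (adjusted p = 0.0487) and -0.61 (adjusted p = 0.0266).

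Smad6 (chr9:63953076-64022059, minus), which preferentially restrains BMP signalling, had the same arrangement with more overlap. It was at 8.45, 11.7 and 6.22 CPM in WT LA against 9.83 to 17.3 CPM in mutant LA, and at 52.9 and 40.3 CPM in WT RA against 31.4 to 55.1 CPM in mutant RA. The interaction was -0.77 (SE 0.33) without the block and -1.04 (SE 0.14, adjusted p = 0.00372) and -0.75 (SE 0.16, adjusted p = 0.0306) with it, and lost its call in both placements without WT animal 3 (-1.01, adjusted p = 0.119, and -0.53, adjusted p = 0.183). Id3 (chr4:136143497-136145755, plus), a BMP-responsive inhibitor of basic helix-loop-helix factors, was at 17.7, 19.7 and 16.9 CPM in WT LA against 20.4 to 33.5 CPM in mutant LA. Its RA levels were 62.1 and 52.2 CPM in WT and 39.2 to 64.4 CPM in mutants, so only the LA levels did not overlap. The interaction was -0.72 (SE 0.23, adjusted p = 0.914), -0.79 with the block (SE 0.10, adjusted p = 0.00187) and -0.86 without WT animal 3 (adjusted p = 0.0237). Skil (chr3:31095058-31122577, plus), a co-repressor of SMADs, was at 27.2 to 31.2 CPM in WT LA and 45.5 to 57.8 CPM in mutant LA, and its interaction was -0.47 (SE 0.13) without and -0.51 (SE 0.08, adjusted p = 0.00918) with the block, a call that without WT animal 3 was lost in the first placement (adjusted p = 0.319) and kept in the second (0.0387).

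**Figure D4:**
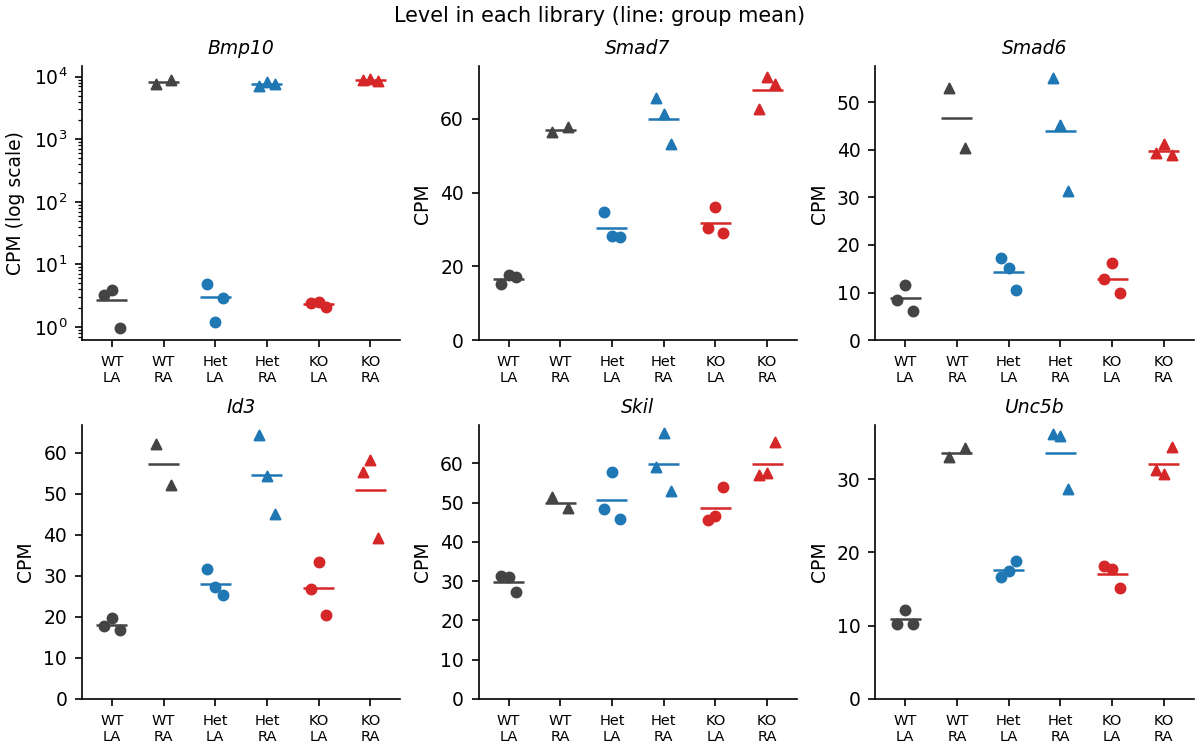
Level in each library (CPM, y axis; log scale for Bmp10) of the ligand Bmp10, the SMAD pathway genes Smad7, Smad6, Id3 and Skil, and the netrin receptor Unc5b, by genotype and atrium, with the group mean as a line. Bmp10 levels of Het and KO overlap with WT in each atrium, while the WT LA libraries of Smad7, Id3, Skil and Unc5b lie below all mutant LA libraries.

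The TGF-beta and BMP list had 37 of 40 members tested, and all genes named in this paragraph belong to it. Of these 13 were called higher in RA of WT (background 5.43%) and 0 higher in LA (6.43%). In mutants 12 were called higher in RA (background 1507 of 18018 genes) and 4 higher in LA, the latter near the background of 9.86%. The median RA minus LA difference was 0.32 in WT and 0.12 in mutants, against 0.01 and 0.00 over all genes. The interaction was negative for 34 of 37, against 9327 of 18018 genes, with a median of -0.26 that came to -0.12 without WT LA replicate 3. It was called for 0 members without the block, for 3 in the first placement (background 0.144% lower) and for 5 in the second (1.28%). Receptors and ligands mostly did not stand out: the endothelial receptor Acvrl1 had an interaction of -0.01, its co-receptor Eng -0.32 (SE 0.26) and Bmp6 -0.11 (SE 0.28). The BMP type I receptor gene Acvr1 differed by 0.96 in WT and 0.60 in mutants and was called in the second placement (adjusted p = 0.0321) and not in the first (0.150). Id1 was at 7.32, 9.19 and 7.71 CPM in WT LA and 10.3 to 18 CPM in mutant LA, and its interaction of -1.0 (SE 0.26, unadjusted p = 0.00164) was called in neither placement (adjusted p = 0.203 and 0.164). Smad9, a BMP-regulated SMAD, kept a large RA excess, 2.87 in WT and 2.41 in mutants.

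The promoter windows of Id3 and Smad6, from 250 bases before to 50 bases after the transcription start in RefSeq (GRCm38.p6), are shown because both genes are SMAD targets called in both placements. Capitals mark the SMAD-binding letters CAGAC on either strand (GTCTG on the strand shown). The window of Id3 lies at chr4:136143572-136143871 (plus strand) and holds 2 matches, and that of Smad6 at chr9:64022010-64022309 (minus strand) and holds 0.
Id3: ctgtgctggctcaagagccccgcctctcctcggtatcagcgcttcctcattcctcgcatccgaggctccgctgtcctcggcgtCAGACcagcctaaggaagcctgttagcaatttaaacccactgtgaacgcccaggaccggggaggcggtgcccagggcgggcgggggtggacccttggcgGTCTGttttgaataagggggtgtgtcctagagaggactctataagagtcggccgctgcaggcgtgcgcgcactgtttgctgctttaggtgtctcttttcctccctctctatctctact
Smad6: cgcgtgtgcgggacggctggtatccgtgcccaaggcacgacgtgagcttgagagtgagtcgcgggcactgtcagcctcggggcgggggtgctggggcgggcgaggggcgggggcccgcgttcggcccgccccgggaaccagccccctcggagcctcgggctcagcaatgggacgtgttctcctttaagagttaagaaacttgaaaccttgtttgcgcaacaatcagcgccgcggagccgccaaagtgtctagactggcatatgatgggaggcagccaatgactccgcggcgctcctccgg
CAGAC was found on either strand in 49.6% of 32851 promoter windows of this length, and GGCGCC, the letters of a BMP-responsive SMAD site, in 11.9%. Of the 23 genes called in both placements 11 had a promoter in the table, 6 of them with CAGAC and 3 with GGCGCC. Neither window shown holds GGCGCC. The matches are a description of the letters and are no measure of binding.

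Among guidance genes Slit2 and Unc5b were named for low p values without the block. Slit2 (chr5:47983138-48307733, plus), a secreted repellent, was the gene with the largest higher interaction among those named: 45.4, 72.9 and 48.2 CPM in WT LA against 18.3 to 36 CPM in mutant LA, and 9.84 and 12.0 CPM in WT RA against 13.1 to 22.1 CPM in mutant RA. Both atria separated WT from all mutant libraries, in opposite directions. The RA minus LA difference was -2.35 in WT and -0.49 in mutants, an interaction of 1.86 (SE 0.33, 95% interval 1.15 to 2.57, edgeR adjusted p = 0.271). The block gave 1.62 (adjusted p = 0.118) and 1.97 (adjusted p = 0.0514), so with all animals kept Slit2 was called in neither placement. Without KO animal 2 the Slit2 interaction (log2) was called in both, at 1.76 (adjusted p = 0.00386) and 2.11 (adjusted p = 0.0277). Unc5b (chr10:60762593-60831581, minus), a netrin receptor of endothelium, was at 10.3, 12.1 and 10.2 CPM in WT LA against 15.2 to 18.9 CPM in mutant LA, with RA at 33 and 34.2 CPM in WT and 28.7 to 36.1 CPM in mutants. Its interaction of -0.70 (SE 0.13, adjusted p = 0.271) had an adjusted p of 0.0488 and 0.0379 with the block, and lost both calls without WT animal 3 (0.561 and 0.276). For Sema3c, a semaphorin of vessels and outflow tract, the difference was -0.53 in WT and -1.23 in mutants, larger rather than smaller (interaction -0.69, SE 0.18), with a call in the second placement (adjusted p = 0.00128) and not in the first (0.124). Of the 34 guidance genes tested, 0 were called without the block, 1 in the first placement (0.144% of all genes lower) and 5 in the second (1.28%), all lower.

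Cnr1, Heyl, Tcf21 and Actb were among the other genes called in both placements. Cnr1, the cannabinoid receptor 1 gene, is expressed near the limit of these data, at 0.516, 0.406 and 0.259 CPM in WT LA and 1.15 and 0.639 CPM in WT RA. In mutants it was at 0.873 to 1.51 CPM in LA and 0.232 to 0.661 CPM in RA, so the contrast had opposite signs, 1.14 in WT (adjusted p = 0.0816, not called) and -1.36 in mutants (adjusted p = 0.000381). Its interaction was -2.50 (SE 0.48, 95% interval -3.50 to -1.51). Heyl, a Notch target of vascular smooth muscle, was at 16.6, 18.9 and 9.08 CPM in WT LA and 20.7 and 15.7 in WT RA, against 26.9 to 41.2 and 25.5 to 33.6 CPM in mutants, with no overlap in either atrium. Tcf21, a transcription factor of fibroblasts, was at 8.92, 7.42 and 4.15 CPM in WT LA against 10.5 to 16.2 CPM in mutant LA. Actb, cytoplasmic beta-actin, was at 189 to 262 CPM in WT LA and 344 to 522 CPM in mutant LA, and at 291 to 314 and 272 to 438 CPM in RA. For Heyl, Tcf21 and Actb WT LA replicate 3 was the lowest library, and the interaction without it came to -0.27, -0.47 and -0.43, from -0.52, -0.72 and -0.58. The fibroblast list (16 of 16 tested) had a median interaction of -0.43 that came to -0.13 without that library, and its part in these results beyond this was not tested. In whole tissue, fewer cells of a type and less RNA per cell cannot be told apart.

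Lepr and Elf4 were named for low p values without the block. Lepr, the leptin receptor gene, was at 0.713 to 1.17 CPM in WT LA and 1.52 to 2.23 CPM in mutant LA, with RA levels of 14.4 and 11.3 against 8.40 to 13.7 CPM, and an interaction of -1.12 (SE 0.26, adjusted p = 0.792). Elf4, an ETS family factor, had an interaction of -0.68 (SE 0.15, adjusted p = 0.605), and Jund, an AP-1 component, one of -0.53 (SE 0.14, adjusted p = 0.914). Elf4 was called with the block (adjusted p = 0.0103 and 0.0218), Jund in neither placement, and Lepr in the second only (0.0567 and 0.00649). On the other side Nubpl, an assembly factor of respiratory complex I, and Afg1l, a mitochondrial ATPase, had interactions of 0.46 (SE 0.12) and 0.35 (SE 0.10), both with an adjusted p of 0.914.

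Aldh1l2, mt-Co1, mt-Nd4 and mt-Cytb, 4 of the 7 higher genes, act in mitochondria. Aldh1l2 (chr10:83487450-83534140, minus), a mitochondrial folate enzyme, was at 82.4, 79.4 and 84.0 CPM in WT LA and 49.1 and 53.2 CPM in WT RA. In mutants it was at 51.8 to 59.8 CPM in LA and 42.3 to 54.9 CPM in RA, so the WT LA libraries alone lay above all others. The difference was -0.68 in WT and -0.21 in mutants, and the interaction was 0.47 (SE 0.12, adjusted p = 0.914), with the block 0.50 (SE 0.08, adjusted p = 0.00918) and 0.47 (adjusted p = 0.0036). Without WT animal 3 the call was lost in the first placement (adjusted p = 0.0989) and kept in the second (0.0200). mt-Cytb, the cytochrome b gene of the mitochondrial genome, was at 50800, 56400 and 59400 CPM in WT LA and 34100 and 39300 CPM in WT RA, against 29400 to 40200 CPM in mutant LA and 28500 to 36500 CPM in mutant RA. Its interaction was 0.47 (SE 0.15), with an adjusted p of 0.0153 and 0.00179 with the block.

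The list of fatty acid oxidation genes had 29 of 29 tested, of which 15 were called higher in LA of WT (background 6.43%) and 8 in mutants (9.86%). Its median RA minus LA difference was -0.50 in WT and -0.20 in each of Het and KO. The interaction was called for 0 members without the block and in the first placement, and for 16 in the second, all higher (background 0.677%). Fabp3, the heart fatty acid binding protein, differed by -0.80 in WT and -0.48 in mutants, and Hadha, a subunit of the trifunctional protein, by -0.58 and -0.22. Of the 79 nuclear genes of the respiratory chain 59 were called higher in LA of WT and 59 in mutants, with medians of -0.36 and -0.22, and 0, 0 and 22 were called higher for the interaction. For the 13 protein genes of the mitochondrial genome 5 and 0 were called, with medians of -0.35 and -0.06. For the interaction 0, 3 and 4 of them were called higher, against 0, 7 and 122 of all 18018 genes tested. The members did not go one way, as the interaction was negative for 6 of the 13, against 9327 of 18018 genes. LA levels of these lists differed between mutants and WT by medians of -0.48, -0.33 and -0.73, and RA levels by -0.14, -0.16 and -0.50. WT LA was also the group with the higher mitochondrial share given above, and each WT LA library was above all others in summed cardiomyocyte and adipocyte markers and below all others in neuronal and Schwann cell markers. The 16 cardiomyocyte markers had a summed level of 72700 to 84600 CPM in WT LA, 62000 to 71700 in mutant LA, 64800 to 68900 in WT RA and 55900 to 62800 in mutant RA. The 6 defining atrial myocyte markers, whose WT LA range met those of WT RA and mutant LA, summed to 13000 to 15600 CPM in WT LA, 11900 to 13500 in mutant LA, 12300 to 13000 in WT RA and 9330 to 11400 in mutant RA. The 12 adipocyte markers, of which 5 passed the filter on low counts and 0 lacked counts in every library, summed to 299 to 407 CPM in WT LA, 193 to 280 in mutant LA, 244 to 250 in WT RA and 183 to 239 in mutant RA. By mean log2 CPM the adipocyte list did not set WT LA apart from mutants. It was at 2.95 to 3.45 in WT LA, 2.44 to 3.71 in mutant LA, 2.92 in WT RA and 2.66 to 3.52 in mutant RA. The 12 neuronal and Schwann cell markers, of which Chat and Slc18a3 had no count in any library, summed to 39.2 to 49.9 CPM in WT LA, 55 to 60.7 in mutant LA, 60.8 to 63 in WT RA and 77.5 to 81.5 in mutant RA. The part of these lists in the results was not tested.

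**Figure D5:**
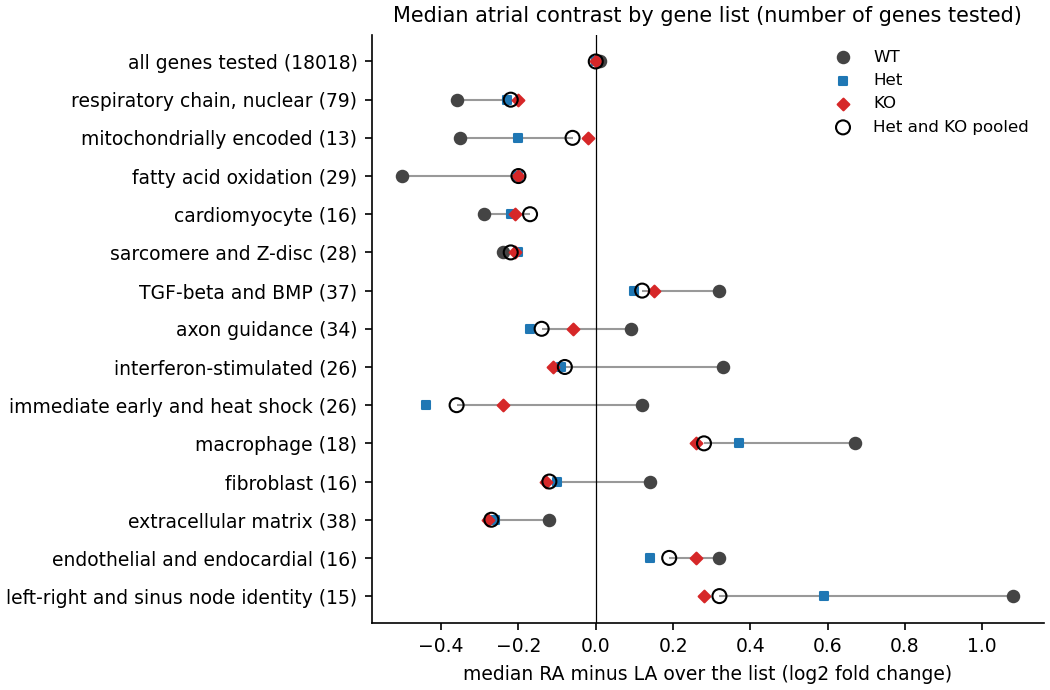
Median RA minus LA difference (x axis, log2 fold change) over the tested genes of 14 lists and over all genes, in WT, Het, KO and the pooled mutants. Fatty acid oxidation genes lie at -0.50 in WT and -0.20 in mutants, TGF-beta and BMP genes at 0.32 and 0.12, and all genes at 0.01 and 0.00.

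The immediate early and heat shock list (26 of 26 tested) had a median difference of 0.12 in WT and -0.36 in mutants. In WT 1 member was called higher in LA (background 6.43%), and in mutants 6 were (9.86%). For the interaction 0 were called in any of the 3 fits. Interferon-stimulated genes (26 of 26) had medians of 0.33 and -0.08, with 0 called for the interaction without the block and in the first placement and 7 lower in the second (1.28% of all genes). Their median interaction was -0.34, and -0.20 without WT LA replicate 3. Macrophage markers (18 of 18) had medians of 0.67 and 0.28, and an interaction of -0.37 that came to 0.04 without WT LA replicate 3. Genes of the sarcomere and Z-disc (28 of 30 tested) had medians of -0.24 and -0.22, and calcium handling genes (32 of 32) of -0.05 and -0.07, with 1 gene called in each list in the second placement, a share near the 1.95% of all genes, and 0 otherwise.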

How the data were processed

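RNA from left and right atria was sequenced after messenger RNA enrichment (KAPA mRNA HyperPrep, Illumina NovaSeq), per the labels' protocols. The authors deposited a table of whole-number gene counts, taken here as unnormalized. STAR 2.7.9a, DESeq2 1.30.1 and the build mm10 appear in the submitters' processing notes without their roles, and neither counting rule nor strand nor annotation release is given in the sources used here. Of 56691 gene IDs, 52073 were matched by base ID to GENCODE M21 (GRCm38), the source of symbols and coordinates. Unmatched IDs took 0.418 to 2.63% of a library.

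Counts were analysed with edgeR 4.0.16 in R 4.3.3 (TMM scaling, robust quasi-likelihood F tests, genes kept by filterByExpr with min.count 10), with 1 mean for each of WT and mutant LA and RA and no block. An "adjusted p" is Benjamini-Hochberg over the 18018 genes tested. Standard errors are the log2 difference divided by the square root of F. CPM values are TMM-scaled, and log2 CPM uses a prior count of 2. Because the WT RA libraries number 2, precision is least on the WT side. Replicates are separate animals by the title IDs. LA and RA libraries of the same Het or KO animal deviated together from their group means (correlation 0.213 to 0.411 over genes). The fit with the animal as replicate block therefore stands beside the results. In WT the identical RA library gave 0.158 with LA replicate 1 and 0.12 with LA replicate 2. Deviations of 2 WT RA libraries mirror each other, so the WT values do not show whether libraries of the same animal deviate together.

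Named genes were, with a mean of at least 5 CPM, the 5 smallest p in each direction (none being called), and 7 fixed genes of atrial identity or target. The 23 genes called in both block fits, the 5 largest contrasts of WT in each direction and other examples were added after their values were seen. Some of these genes are not reported here. The comparison, the gene lists and the rule were chosen with earlier results of these data known. The fits without and with the block were run on simulated counts. These counts held no differences between animals and no outlying library, so they do not check how the fits handle such features. Alternatives were DESeq2 1.42.0, limma-voom (limma 3.58.1), other scalings, no filter, 6 group means, Xist as covariate, single genotypes and each library left out. The block without each animal in turn was added after seeing the data.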

Additional observations from a re-analysis of the deposited data

Results flagged for a closer look

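In 6 of the genes described, every WT difference between RA and LA had one sign and all 6 mutant animals had the other, an arrangement found in 140 of the 18018 genes tested (0.777%). The WT differences were that of animal 3 and the identical RA library minus the LA of animals 1 and 2. The last 2 share an RA library, so the WT differences are not independent animals. They were Cnr1 (interaction -2.50), Heyl (-0.52), Actb (-0.58), Jund (-0.53), Zfp365 (-1.12) and Usp9x (0.41). The edgeR test of the interaction without a block called none of them, and with the animal as block all but Jund were called in both placements. All but Jund are among the 23 genes that were listed because of those calls. The choice favours opposite signs, and nothing is read from the calls or the arrangement. In Cnr1 the WT differences were 1.04 to 1.34 on log2 CPM and those of mutant animals -1.72 to -0.83, at a mean of 0.768 CPM. In Zfp365, a zinc finger gene, WT animal 3 was at 1.54 and the other WT pairs at 0.42 and 0.23, with mutants at -0.65 to -0.35. Usp9x, an X-linked deubiquitinase, had WT differences of -0.41 to -0.14 and mutant ones of 0.07 to 0.25.

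Among the 6 mutant animals, Het animal 1 stood apart from the other 5 in 2 genes. Its RA minus LA difference was 4.16 for Cd207, the langerin gene of tissue-resident antigen-presenting cells, against 6.26 to 7.01, with 2.54 CPM in its LA library against 0.257 to 0.412 CPM in the other mutant LA libraries. For mt-Nd4 it was -0.31 against -0.19 to -0.13. Both genes were flagged after their values were seen, and how often such a gap arises by chance was not tested.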

How the results depend on the processing

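The interaction was called for 5 genes by DESeq2, for 33 and 352 with the animal as replicate block in the 2 placements of the identical library, and for 0 in the other alternatives without a fixed block, each library left out included. With the block and 1 animal left out, the first placement gave 675 (WT 1), 2 (WT 3), 72, 14 and 10 (Het 1 to 3) and 13, 21 and 41 (KO 1 to 3), and the second 672 (WT 2), 178 (WT 3), 534, 209 and 175 (Het) and 223, 243 and 322 (KO). For RA minus LA in WT the counts were 3315 with library totals, 3485 and 4103 with the block, 3319 with the random block, 3525 with the identical columns as 2 libraries, 1336 with Xist as covariate and 610 to 2282 with 1 library left out. In mutants they were 5177 and 5116 with the block, 5185 with the random block and 2789 to 3532 with 1 library left out. KO minus Het gave 27 without the filter. On the 200 genes with the smallest p in Het alone the medians were 1.51 in WT and 1.58 in KO, and on those of KO alone 1.47 in WT and 1.55 in Het. Library totals moved the median interaction of all genes from -0.01 to -0.14, that of the TGF-beta and BMP list to -0.39, of fatty acid oxidation to 0.13 and of the nuclear respiratory chain to 0.02.

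Some uncalled interactions changed sign. Tbx5 came to 0.02 without WT RA replicate 3. Bmp10 came to -0.02 with library totals, -0.22 with the block, -0.17 with Het and WT alone, and -0.24 to 0.45 with 1 library left out (-0.05 without Het LA replicate 2). With the block and 1 animal left out, Bmp10 came to -1.52, -0.37, -0.18, -0.26, -0.25, -0.28, -0.11 and -0.01, and Hcn4 to -0.53, -0.12, -0.07 and -0.01. Of 1935 values of named genes under the alternatives, 1590 kept direction and side of the threshold, 326 became called, 0 lost a call and 19 changed sign. The interaction values had no call to lose, as the main fit called none. The named genes include the 23 listed for their calls with the block, itself an alternative, so this tally is no measure of robustness. The cause of the changes of sign was not tested. In the block fits 2 WT pairs stand against 6 mutant pairs, and genes as weak as Cnr1 (0.768 CPM) are measured least precisely.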
